A study of Mus musculus with 2 samples.

Results

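Cytochrome P450 genes were described in white fat of obese mice given vehicle or the drug entacapone. Members were the protein-coding genes whose mm10 symbol is Cyp followed by digits, letters and digits with nothing after, without Cyp51. This gave 94 genes among 37315 listed, and 41 of them reached a mean of at least 0.5 CPM (reads scaled to library size) over both libraries. Of the other 53, 24 had no read in either library and 29 had only a few.

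Fat from the inguinal depot of C57BL/6 male mice, 23 weeks old and obese from a high-fat diet, was measured by RNA-seq of poly(A)-selected RNA. One library came from vehicle-treated mice and 1 from mice treated with Entacapone, a drug for Parkinson disease that blocks catechol methylation and also inhibits the RNA demethylase FTO. Both groups shared the strain, the sex, the age and the obesity. How much drug was given, for how long, and how many mice each library pools are not stated in the labels. Because each group is a single library, no test could be run, and the differences described are between the libraries, not the treatments.

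P450 enzymes are haem proteins that use electrons from a reductase to insert an oxygen atom into a substrate. Members of families 1 to 3 mostly oxidise drugs and other foreign compounds, and some also act on polyunsaturated fatty acids. Family 4 hydroxylates fatty acids and eicosanoids. Other families make or break down sterols, bile acids, steroid hormones, retinoic acid and vitamin D. Liver holds by far the widest set of these enzymes, whereas fat expresses a narrower set.

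Counted reads totalled 13620056 for vehicle and 12979673 for entacapone. Each ratio below is entacapone over vehicle and carries an exact 95% counting interval (Clopper-Pearson), which covers counting error only. A call of higher or lower needed at least a 2-fold ratio together with an interval not including 1. A library with 0 reads was given a floor of 3 counts (0.217 CPM for vehicle, 0.234 CPM for entacapone).

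All 12 markers of adipocytes were measured, led by Fabp4 at 15029 (vehicle) and 17900 CPM (entacapone), and their median log2 ratio was 0.05. Of the 12, 7 were higher and 5 lower beyond counting error, and 1, Cfd, was called higher at 1722 against 5250 CPM. Markers of other cell types differed as well. Of 49 measured hepatocyte markers, 45 were lower and 1 higher beyond counting error in the entacapone library (median log2 ratio -2.57). The sum over all 50 listed was 2491 (vehicle) and 1996 CPM (entacapone), of which Pck1, also an adipocyte gene, held 1314 and 1305 CPM. G6pc was the 1 listed hepatocyte marker with 0 entacapone reads, and none had 0 vehicle reads. Of 22 measured keratinocyte, sebaceous and mammary markers, 15 were higher and 1 lower (median 0.69, list sums 3042 and 3505 CPM), with Wap at 0 in both libraries, Lalba at 0 in vehicle and Awat1 at 0 in entacapone. Most of these sums came from Fasn (2285 and 2400 CPM) and Mgst1 (602 and 704 CPM). All 14 macrophage markers were measured and 13 were lower (median -0.98, sums 2196 and 1207 CPM), with none at 0. Fibroblast markers were lower for 10 of 11 (sums 7799 and 5011 CPM) and skeletal muscle markers higher for 11 of 12 (sums 1384 and 2149 CPM). In bulk tissue, fewer cells of a type and less RNA per cell cannot be told apart.

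Reads of the 94 genes together made up 0.110% of vehicle and 0.152% of entacapone reads. Cyp2e1 alone accounted for 45.7% of the vehicle P450 reads (exact interval 44.9 to 46.5%) and 61.5% of the entacapone P450 reads (60.8 to 62.2%). The summed level of all 94 genes was 1.42-fold higher in the entacapone library (1.39 to 1.45). Without Cyp2e1 the sum of the other 93 genes was 592 and 594 CPM, a log2 ratio of 0.01 (-0.04 to 0.05). The difference in total P450 reads thus lay in 1 gene, while the other members went both ways.

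**Figure D1:**
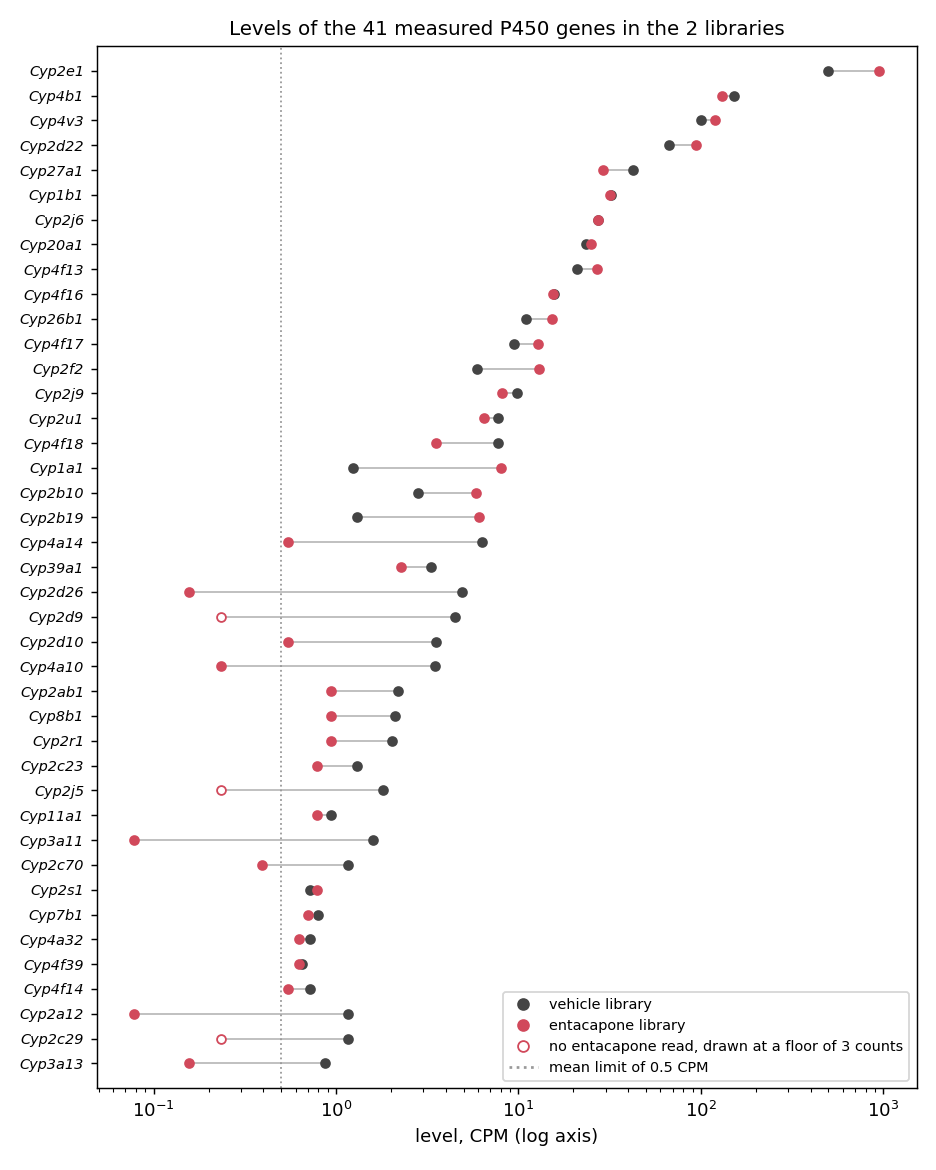
Level of each of the 41 measured P450 genes in the vehicle (grey) and entacapone (red) library, in CPM on a log axis; open circles mark 0 entacapone reads, drawn at a floor of 3 counts. Cyp2e1 stands at the top at 497 and 949 CPM, and 9 genes have a vehicle level above and an entacapone level below 0.5 CPM.

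Among the 41 measured genes, 4 were called higher and 15 lower in the entacapone library. Over all 13645 protein-coding genes that passed the same limit, 1.74% were called higher and 3.97% lower. Counting any size of difference whose interval excluded 1, 10 members were higher and 17 lower, beside 19.5% and 21.0% of all genes. The median log2 ratio of the 41 was -0.23, beside -0.00 over all 13645 genes. It was also -0.23 with the 3 genes that lacked entacapone reads set at their bound. That median could not move, because these 3 genes lie below it either way. Of the 15 lower genes, 9 passed the limit only through the vehicle library and so had to differ, and no gene passed only through the entacapone library. Among the 32 members with at least 0.5 CPM in each library, 4 were called higher and 6 lower, beside 1.47% and 2.99% of the 13248 genes with such levels. At any size, 10 of these 32 were higher and 8 lower, beside 19.7% and 20.5% of those genes. Most calls fell at low levels: the 16 members with a mean of at least 5 CPM held 1 higher and 1 lower call, beside 0.756% and 1.77% of the 10583 genes at that level. At any size, 7 of the 16 were higher and 3 lower, beside 22.9% and 22.5%. The 25 members between 0.5 and 5 CPM held 3 higher and 14 lower calls, beside 5.16% and 11.6% of the 3062 genes at that level, and 9 of the 14 are those that passed through vehicle alone. At any size the members' counts were the same, beside 7.58% and 15.9%.

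**Figure D2:**
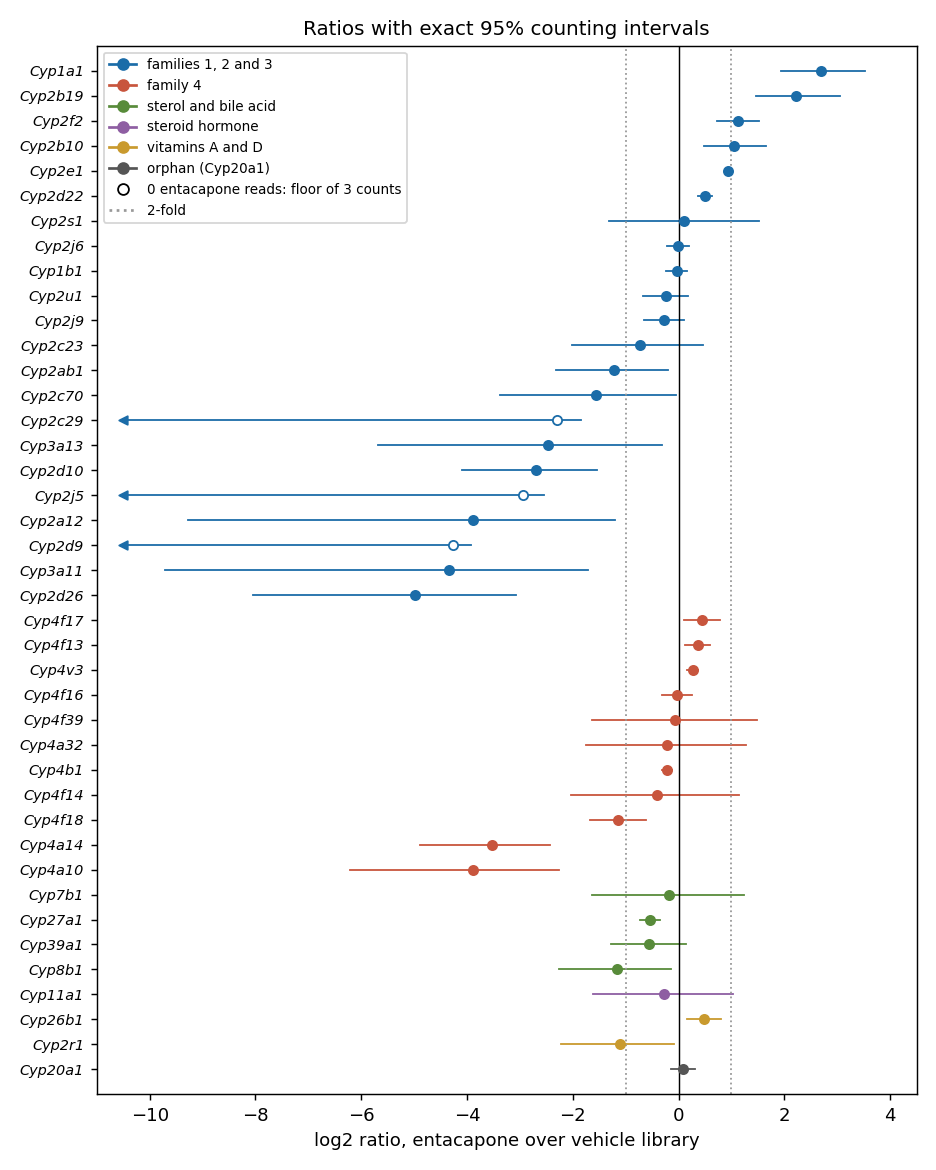
Log2 ratio of entacapone over vehicle for the 41 measured genes, with exact 95% counting intervals, grouped by class; arrows mark intervals with no lower end and open circles a floor of 3 counts. The intervals of the abundant genes such as Cyp2e1 (0.89 to 0.98) are narrow, and those of genes with few entacapone reads reach far to the left, as for Cyp3a11 (-9.72 to -1.72).

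Families 1 to 3, apart from Cyp2r1, which is given with vitamins A and D, held 58 of the 94 genes, of which 22 were measured. Of these, 4 were called higher and 10 lower, beside 1.74% and 3.97% of all genes. Of the 10, 8 passed the limit through the vehicle library alone and could only be lower. Cyp2d10 and Cyp2ab1 were the other two. Cyp2e1 (ENSMUSG00000025479, chromosome 7, 140763739 to 140774987, GRCm38), an enzyme that oxidises ethanol, acetone and small solvents, had 6872 vehicle and 12151 entacapone reads. Its level was 497 against 949 CPM, 1.91-fold higher (1.85 to 1.97), just short of the 2-fold limit. Per kilobase of exon it was the most abundant member in both libraries, at 231 and 440 RPKM. The next by this measure was Cyp4b1 at 67.1 and 57.8 RPKM. Cyp2e1 is expressed in both adipocytes and hepatocytes, and it was higher in the library in which hepatocyte markers were lower.

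Cyp1a1 (chromosome 9, 57687928 to 57703824), the classical target of the aryl hydrocarbon receptor, showed the highest ratio of all measured members. It had 17 vehicle and 102 entacapone reads (1.23 against 7.97 CPM), a ratio of 6.48 (3.85 to 11.5). Cyp1b1, another target of this receptor that is typical of stromal cells, was level at 32.3 against 31.6 CPM on 446 and 404 reads, with a ratio of 0.978 (0.852 to 1.12). Cyp1a2, the liver-restricted neighbour of Cyp1a1, stayed under the limit with 12 vehicle and 0 entacapone reads, at least 3.71-fold lower against the floor, with an interval that reaches to 2.57-fold. The 3 members of family 1 thus took 3 different courses. Transcripts of the receptor itself, Ahr, were within counting error at 6.59 against 6.49 CPM. Tiparp, which the receptor also induces, was slightly lower with a log2 ratio of -0.17 (-0.33 to -0.01), and Ahrr, the receptor's repressor, had 4 and 5 reads.

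The other 3 genes called higher lie in 1 cluster of family 2 genes on chromosome 7. Cyp2b19 (26757142 to 26772630), a keratinocyte enzyme that converts arachidonic acid to epoxides, had 18 reads against 78 (1.30 against 6.09 CPM), a ratio of 4.68 (2.77 to 8.30). Cyp2f2, the naphthalene-oxidising enzyme of airway club cells, had 82 and 165 reads (5.94 against 12.9 CPM), a ratio of 2.17 (1.66 to 2.87). Cyp2b10, the standard target of the receptor CAR, had 39 and 75 reads (2.82 against 5.86 CPM), a ratio of 2.08 (1.39 to 3.14). All 3 were low in abundance beside Cyp2e1. Transcripts of Nr1i3, which encodes CAR, stood at 12 vehicle reads and 1 entacapone read, a log2 ratio of -3.47 (-8.89 to -0.72), opposite in direction to Cyp2b10. Keratinocyte markers were higher in the same library as Cyp2b19, among them Krt5 (2.03 against 9.22 CPM), and their part in these values was not tested. Of Cyp2f2, 13.5% of the exon length overlaps an antisense gene whose reads an unstranded kit cannot separate.

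In the same chromosome 7 cluster Cyp2a12, a liver steroid hydroxylase, went the other way with 16 vehicle reads and 1 entacapone read (1.16 against 0.0781 CPM), a ratio of 0.0675 (0.00161 to 0.434). Cyp2s1, an epithelial enzyme, lay between them with 10 reads in each library. Of the 13 members in this stretch (25802475 to 27158668), 5 were measured. Of these, 3 were called higher and 1 lower, beside 1.74% and 3.97% of all genes. The lower one, Cyp2a12, passed the limit through the vehicle library alone, which fixed its direction.

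The Cyp2d cluster on chromosome 15 (82370527 to 82794294) holds 8 members, of which 4 were measured. Cyp2d22, which is broadly expressed outside the liver, was higher at 923 against 1210 reads (66.8 and 94.5 CPM), a log2 ratio of 0.50 (0.38 to 0.63). Cyp2d9, a male-specific steroid hydroxylase of mouse liver, had 62 vehicle reads (4.49 CPM) and 0 entacapone reads, at least 19.1-fold lower against the floor, with an interval that reaches to 15.1-fold. Cyp2d26 had 68 and 2 reads (4.92 against 0.156 CPM), 31.5-fold lower (8.39 to 265). Cyp2d10 had 49 and 7 reads (3.55 against 0.547 CPM), 6.49-fold lower (2.92 to 17.0). Cyp2d26 and Cyp2d9 passed the limit through the vehicle library alone and so had to be lower, while Cyp2d22 and Cyp2d10 passed in each library and differed in direction. The cluster's 7 genes other than Cyp2d22, a split made after the values were seen, summed to 191 vehicle and 10 entacapone reads, 17.7-fold lower (9.42 to 37.5). Counts of Cyp2d10 are less certain, since 11.5% of its 101-base transcript windows also occur in other genes. For Cyp2d9 this share was 7.75%.

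The Cyp2c genes, liver enzymes of drugs and arachidonic acid, were scarce, and 3 of 15 were measured. Cyp2c29 had 16 vehicle reads (1.16 CPM) and 0 entacapone reads, at least 4.94-fold lower against the floor, with an interval that reaches to 3.57-fold. Cyp2c70, which hydroxylates bile acids into muricholic acids in mice, had 16 and 5 reads (1.16 against 0.391 CPM), a ratio of 0.337 (0.0966 to 0.964). Cyp2c23, best known from kidney and lying apart from the cluster, was within counting error at 18 and 10 reads. Summed over all 15 genes without any limit on level, Cyp2c reads numbered 89 and 18, 4.58-fold lower (2.74 to 8.08). Vehicle reads were found for 10 of the 15 genes and entacapone reads for 5.

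Cyp3a genes, whose human counterparts handle many drugs, gave 42 vehicle and 5 entacapone reads over all 7 members, 7.78-fold lower (3.08 to 25.2). Cyp3a11, the main liver form, had 22 reads and 1 read (1.59 against 0.0781 CPM), 20.4-fold lower (3.29 to 841). Cyp3a13, which lies outside the cluster and is also an intestinal gene, had 12 and 2 reads (0.869 against 0.156 CPM), 5.56-fold lower (1.24 to 51.1). Both genes passed the limit through the vehicle library alone, so their lower direction was fixed by the limit, and with so few reads the size of the differences is poorly fixed.

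The Cyp2j enzymes, which form epoxides from arachidonic acid, included both steady and lower genes. Cyp2j6 was level at 27.4 against 27.2 CPM on 378 and 348 reads (ratio 0.994, 0.857 to 1.15), and Cyp2j9 was within counting error at 9.85 against 8.13 CPM on 136 and 104 reads (log2 ratio -0.28, -0.66 to 0.10). Cyp2j5, abundant in kidney and liver, had 25 vehicle reads (1.81 CPM) and 0 entacapone reads, at least 7.72-fold lower against the floor, with an interval that reaches to 5.83-fold. Cyp2u1, a fatty acid hydroxylase, was within counting error at 7.67 against 6.49 CPM on 106 and 83 reads (log2 ratio -0.24, -0.67 to 0.19), and 10.5% of its exon length overlaps an antisense gene. Cyp2ab1, whose substrates are not well known, was lower on 30 and 12 reads (2.17 against 0.938 CPM), a ratio of 0.432 (0.201 to 0.868).

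Albumin (Alb) stood at 204 against 66.6 CPM in the same libraries, a log2 ratio of -1.61 (-1.72 to -1.50), and Apoa1 at 30.3 against 3.91 CPM (-2.95, -3.41 to -2.53). Hnf4a, a transcription factor of hepatocytes that activates many P450 genes, had 30 vehicle reads and 1 entacapone read. The median of the measured hepatocyte markers corresponded to 5.94-fold lower. Among P450 genes expressed in liver, some passed the limit in each library and were lower, namely Cyp2d10, Cyp4a14, Cyp8b1 and Cyp2r1. Others, such as Cyp2d9, Cyp3a11 and Cyp2c29, were lower but passed through the vehicle library alone, which fixed their direction. Cyp2e1, which adipocytes also express, was higher. Not all members that passed in each library were lower. Cyp2f2 and Cyp2b10 were called higher, and Cyp39a1, Cyp7b1, Cyp4f14 and Cyp2c23 were within counting error. The part of liver RNA in these values was not tested.

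**Figure D3:**
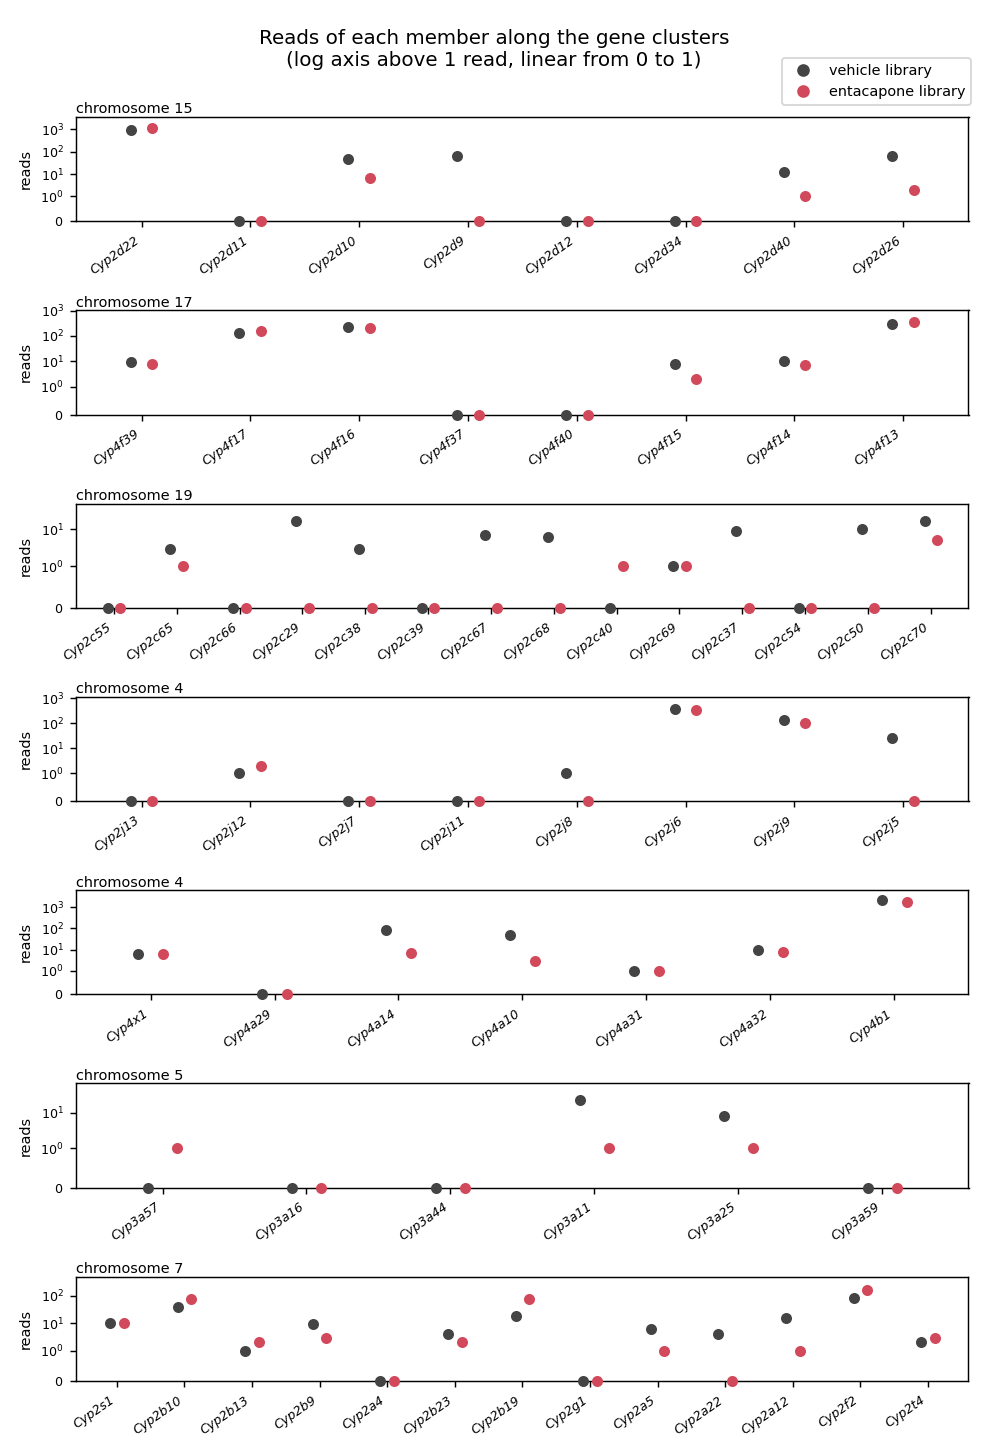
Reads of each member in the vehicle (grey) and entacapone (red) library along the 7 clusters with 6 or more members, in the order in which the genes lie, on an axis that is logarithmic above 1 read. Abundant genes such as Cyp2d22 (923 and 1210 reads) sit beside scarce genes such as Cyp2d26 (68 and 2 reads) in 1 cluster.

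Promoter sequences from RefSeq (GRCm38.p6) were available for 33 of the 41 measured genes, and the 250 bases before the start were searched on both strands. The motifs were chosen after the values were seen: TATAAA, the core of the TATA box, CAAAGTCCA, a binding motif of HNF4, and GCGTG, the core to which the aryl hydrocarbon receptor binds. The lines that follow give Cyp2e1, the most abundant member, Cyp1a1, the member with the highest ratio, and the 3 measured members that hold CAAAGTCCA. They run along the strand of each gene, and capitals mark the matches to any of the motifs on either strand.
Cyp2e1, chr7:140763569-140763818, plus strand: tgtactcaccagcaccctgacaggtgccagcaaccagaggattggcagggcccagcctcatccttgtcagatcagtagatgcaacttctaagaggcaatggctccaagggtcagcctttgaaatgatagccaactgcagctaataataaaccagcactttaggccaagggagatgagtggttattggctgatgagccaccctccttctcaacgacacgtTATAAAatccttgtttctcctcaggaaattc
Cyp1a1, chr9:57697363-57697612, plus strand: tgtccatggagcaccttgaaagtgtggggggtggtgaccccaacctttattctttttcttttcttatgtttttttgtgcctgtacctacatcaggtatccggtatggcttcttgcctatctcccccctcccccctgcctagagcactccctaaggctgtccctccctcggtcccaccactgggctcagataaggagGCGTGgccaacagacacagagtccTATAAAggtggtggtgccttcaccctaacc
Cyp3a11, chr5:145879855-145880104, minus strand: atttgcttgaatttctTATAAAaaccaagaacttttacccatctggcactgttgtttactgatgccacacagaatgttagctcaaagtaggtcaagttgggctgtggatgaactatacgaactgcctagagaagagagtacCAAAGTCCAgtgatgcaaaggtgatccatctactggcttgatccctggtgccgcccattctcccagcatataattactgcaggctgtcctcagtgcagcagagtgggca
Cyp2c70, chr19:40187287-40187536, minus strand: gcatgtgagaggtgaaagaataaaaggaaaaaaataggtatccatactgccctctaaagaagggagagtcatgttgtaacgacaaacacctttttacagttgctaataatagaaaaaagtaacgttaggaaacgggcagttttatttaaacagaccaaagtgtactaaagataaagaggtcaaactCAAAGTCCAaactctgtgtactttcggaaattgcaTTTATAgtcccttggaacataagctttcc
Cyp8b1, chr9:121916306-121916555, minus strand: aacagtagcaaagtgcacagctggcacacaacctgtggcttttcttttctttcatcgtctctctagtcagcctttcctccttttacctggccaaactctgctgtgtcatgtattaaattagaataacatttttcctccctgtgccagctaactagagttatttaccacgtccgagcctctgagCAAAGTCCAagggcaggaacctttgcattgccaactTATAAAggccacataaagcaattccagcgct

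TATAAA occurred in 13 of the 33 genes with a promoter (39.4%) and in 12.4% of all 32851 promoters listed. Members were counted by gene, with a match in any listed promoter. The shares over all were counted by promoter, of which 27025 genes held the 32851. TATAAA was present in 9 of the 13 with a promoter among the genes called lower, in 1 of 4 called higher (Cyp1a1) and in 3 of 16 without a call. Of those 9, Cyp2d26, Cyp2d9, Cyp2j5, Cyp3a11, Cyp2c70, Cyp2a12 and Cyp2c29 passed the limit through the vehicle library alone. Their lower direction was thus fixed by the limit. In Cyp2e1 TATAAA ends 26 bases before the start and in Cyp1a1 25 bases before it. In Cyp3a11 the match lies farther away, ending 229 bases before the start. CAAAGTCCA occurred in 3 of the 33, which were all among the genes called lower, and in 0.384% of all promoters. Of the 3, Cyp3a11 and Cyp2c70 passed the limit through the vehicle library alone and could only be lower. The split by call therefore cannot show a link of this motif with direction. GCGTG occurred in 10 of the 33 (30.3%), close to its 28.2% over all promoters. It was present in 2 of 4 called higher (Cyp1a1 and Cyp2b10), in 7 of 16 without a call, among them Cyp1b1, and in 1 of 13 called lower (Cyp2ab1). A match is a description of letters, and binding was not measured.

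Family 4 held 17 genes, of which 11 were measured, with 0 called higher and 3 lower at 2-fold, beside 1.74% and 3.97% of all genes. Of the 3, Cyp4a10 passed the limit through the vehicle library alone and could only be lower. Cyp4b1 (chromosome 4, 115624725 to 115647723), a hydroxylase of fatty acids and other compounds, was the second most abundant member, at 151 against 130 CPM on 2090 and 1669 reads. Its log2 ratio was -0.21 (-0.31 to -0.12), a small difference beyond counting error. Cyp4v3, the counterpart of a human fatty acid hydroxylase linked to crystalline retinal dystrophy, stood at 99.6 against 120 CPM on 1376 and 1535 reads (0.27, 0.16 to 0.37). These 2 abundant enzymes of the family went in opposite directions by less than 1.5-fold.

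Cyp4a10 and Cyp4a14, fatty acid omega-hydroxylases and standard targets of PPAR-alpha in liver, were much lower. Cyp4a14 had 87 vehicle and 7 entacapone reads (6.30 against 0.547 CPM), 11.5-fold lower (5.36 to 29.5), and Cyp4a10 had 48 and 3 (3.47 against 0.234 CPM), 14.8-fold lower (4.78 to 74.4). They lie in the same cluster as Cyp4b1, whose level was nearly even. Cyp4a32 was within counting error on 10 and 8 reads, but 17.8% of its 101-base windows also occur in other genes, as do 12.0% of those of Cyp4a10. Over the 5 Cyp4a members the reads numbered 146 and 19, 7.12-fold lower (4.40 to 12.2). Transcripts of Ppara itself were lower at 8.04 against 5.08 CPM (-0.66, -1.13 to -0.21).

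The Cyp4f genes, which hydroxylate leukotrienes and long fatty acids, summed to 770 vehicle and 767 entacapone reads over all 9 members (ratio 1.08, 0.972 to 1.19). Cyp4f13 was higher at 21.0 against 27.0 CPM on 290 and 345 reads (0.36, 0.13 to 0.59), and Cyp4f17 at 9.41 against 12.7 CPM on 130 and 163 reads (0.44, 0.10 to 0.78). Cyp4f16 was level at 15.6 against 15.4 CPM on 216 and 197 reads (-0.02, -0.31 to 0.26). Cyp4f14 and Cyp4f39, the latter an enzyme of skin ceramide synthesis, had 7 to 10 reads in each library and were within counting error. Cyp4f18, a leukotriene hydroxylase of leukocytes that lies apart on chromosome 8, was the only measured one of the 6 with a call, at 107 and 45 reads (7.75 against 3.52 CPM), 2.20-fold lower (1.54 to 3.19). Macrophage markers were lower in the same library, with Adgre1 at 64.9 against 21.6 CPM, and their part in the Cyp4f18 value was not tested. Of the Cyp4f18 exon length, 9.76% overlaps the opposite-strand gene Zfp961.

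Of 6 sterol and bile acid genes, 4 were measured, and all had ratios below 1. Cyp27a1 (chromosome 1, 74713574 to 74737892), the mitochondrial sterol hydroxylase that is also active in macrophages, had 583 and 372 reads (42.2 against 29.1 CPM), 1.45-fold lower (1.27 to 1.66). Cyp8b1, the liver sterol hydroxylase that shapes the bile acid mix, was lower on 29 and 12 reads, 2.24-fold (1.11 to 4.82). Cyp39a1 and Cyp7b1, both oxysterol hydroxylases, were within counting error at log2 ratios of -0.56 (-1.28 to 0.15) and -0.18 (-1.63 to 1.23). Summed over the 6 genes the class was 1.48-fold lower (1.31 to 1.68), and most of its reads came from Cyp27a1. Cyp7a1, the entry enzyme of bile acid synthesis in liver, had no read in either library. Hepatocyte and macrophage markers were lower in the same library, and their part in this class was not tested.

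Of 6 steroid hormone genes only Cyp11a1, the side-chain cleavage enzyme that starts steroid synthesis, was measured, on 13 and 10 reads (ratio 0.830, 0.326 to 2.05). Of the other markers of steroidogenic cells, Hsd3b1 and Nr5a1 had 0 reads in both libraries. Star, which carries cholesterol into mitochondria, had 21 and 15 reads (1.52 against 1.17 CPM), within counting error. Fdx1, on the same list but present in many cell types, is given with the electron donors. Cyp19a1, the aromatase that makes oestrogen, had 0 reads in both, which allows up to 0.217 CPM (vehicle) and 0.234 CPM (entacapone). Cyp21a1 had 0 vehicle and 5 entacapone reads, and 5.08% of its windows are shared with other genes.

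In the vitamin A and D class Cyp26b1, which degrades retinoic acid, was higher at 10.9 against 15.2 CPM on 151 and 195 reads (0.48, 0.17 to 0.80). Cyp2r1, the main vitamin D hydroxylase of liver, was lower on 28 and 12 reads (2.03 against 0.938 CPM), 2.16-fold (1.06 to 4.67). Cyp26a1 and Cyp27b1 had at most 2 reads in each library. Vdr, the vitamin D receptor, stood at 1.09 against 5.39 CPM (2.31, 1.49 to 3.22), the highest ratio among the measured receptors that control P450 genes. Cyp20a1, an orphan enzyme without a settled substrate, was level at 23.5 against 25.0 CPM on 324 and 320 reads (0.09, -0.14 to 0.32).

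A chosen list of 3 P450 enzymes outside the symbol pattern was lower beyond counting error in all 3 cases, beside 21.0% of all genes. Symbols with a letter after the last digits, such as Cyp3a41a and Cyp4a12a, also fall outside the pattern and are not in this list. Adding them to the members left the number of measured genes at 41. Cyp51, the sterol demethylase of cholesterol synthesis, was at 35.3 against 26.2 CPM (-0.43, -0.63 to -0.22). Tbxas1, thromboxane synthase, was at -0.74 (-1.07 to -0.42) and Ptgis, prostacyclin synthase, at -0.81 (-1.35 to -0.29).

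Genes of the proteins that serve P450 enzymes held no 2-fold call. Por, the reductase that feeds electrons to the microsomal forms, was level at 482 against 490 CPM (0.02, -0.03 to 0.07). Of 10 measured electron donors and membrane partners, 5 were higher and 1 lower beyond counting error, beside 19.5% and 21.0% of all genes. At 2-fold 0 were called, beside 1.74% higher and 3.97% lower over all genes. Fdx1, the ferredoxin of mitochondrial P450 enzymes, was highest at 81.7 against 128 CPM (0.64, 0.53 to 0.75), followed by cytochrome b5 (Cyb5a; 0.37, 0.31 to 0.43). The lowest were Cyb5r1 (-0.15, -0.35 to 0.05) and Cyb5b (-0.05, -0.10 to -0.01).

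Of 12 haem synthesis and breakdown genes, all measured, 3 were higher (25%) and 2 lower (16.7%) beyond counting error. These shares were close to the 19.5% and 21.0% of all genes, and 0 were called at 2-fold. Alas1, the rate-limiting enzyme of haem synthesis outside red cells, was lower at 401 against 311 CPM (-0.36, -0.42 to -0.30), and Hmox2 was lowest (-0.41, -0.61 to -0.21). Alad (0.28, 0.12 to 0.44) and Hmox1, the inducible haem oxygenase (0.21, 0.08 to 0.33), were highest. Among the enzymes that act on products near the P450 pathways, Ephx2, which opens fatty acid epoxides, was higher at 380 against 593 CPM (0.64, 0.59 to 0.69). Aldh1a1, which makes retinoic acid, was next at 0.21 (0.15 to 0.27). Aldh1a3, another enzyme of that step, was called lower at 14.6 against 5.24 CPM (-1.48, -1.90 to -1.08), and Aldh1a2 was at -0.81 (-1.54 to -0.11).

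Of 25 receptors and partners that control P450 genes, 19 were measured. Beyond counting error, 6 were higher and 9 lower, beside 19.5% and 21.0% of all genes. The shares of all genes called at 2-fold were 1.74% higher and 3.97% lower. At 2-fold, Vdr was called higher and Hnf4a and the bile acid receptor Nr1h4 lower, the latter at 2.75 against 1.02 CPM (-1.44, -2.47 to -0.50). After Vdr the highest was Ppard (0.33, 0.15 to 0.51). Pparg, the adipocyte regulator, was at 162 against 130 CPM (-0.32, -0.41 to -0.23). Nr1i2, the drug receptor PXR, had 8 vehicle reads and 1 entacapone read and was under the limit, as was Nr1i3.

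**Figure D4:**
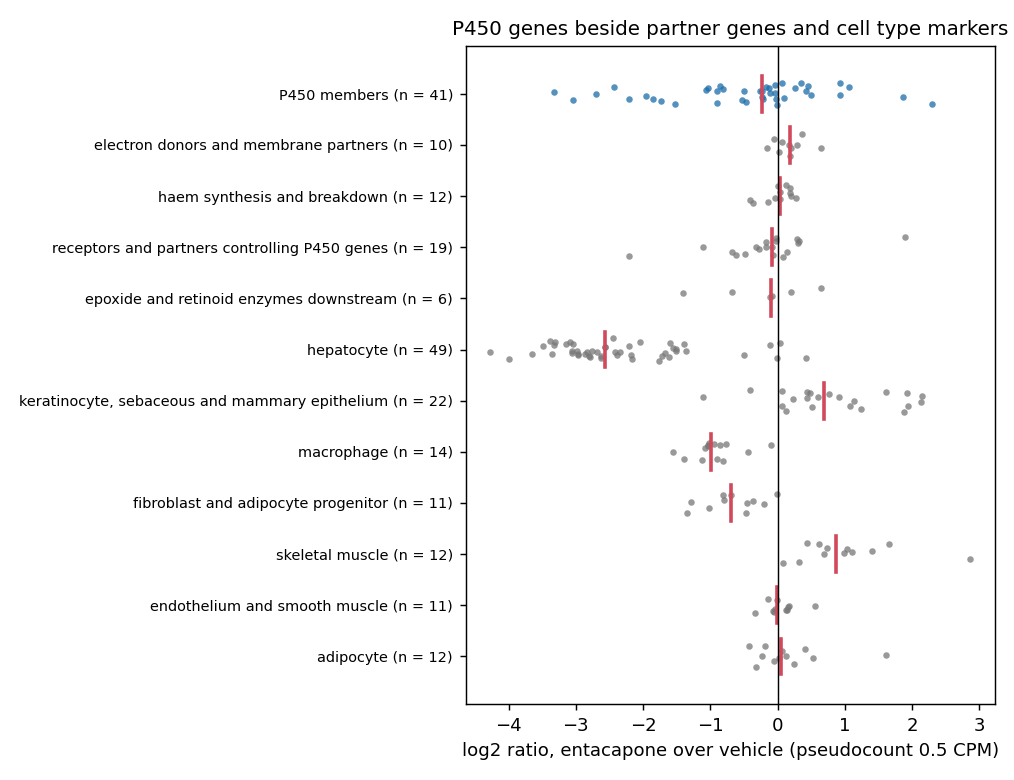
Log2 ratio of entacapone over vehicle (pseudocount 0.5 CPM) for the 41 P450 genes (blue) and for measured genes of the partner and cell type lists (grey); red bars are medians and the number of genes stands in each label. P450 genes lie on both sides of 0, hepatocyte markers mostly below it (median -2.57) and keratinocyte, sebaceous and mammary markers mostly above it (median 0.69).

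Genes below the limit held 131 vehicle and 39 entacapone reads in sum over 53 genes, of which 18 had a higher vehicle and 11 a higher entacapone level. The members just inside the limit were Cyp3a13 (mean 0.513 CPM), Cyp2c29 (0.579 CPM) and Cyp2a12 (0.618 CPM). Those just outside it were Cyp2d40 (0.473 CPM), Cyp4x1 (0.452 CPM) and Cyp2b9 (0.443 CPM). Cyp2d40 had 12 reads and 1 read, whereas Cyp4x1 had 6 reads in each library.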

How the data were processed

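The values deposited by the authors are raw counts of reads, 1 headerless file for each library. The submitters' processing notes name TopHat2 2.1.1, HTSeq 0.6.0 and the mm10 build. Gene models, counting options and the treatment of multi-mapped reads are not stated in the labels. The TruSeq v2 kit does not mark strand, so overlapping genes on opposite strands cannot be told apart. Identifiers were matched to GENCODE M21 (GRCm38, the same assembly as mm10) for 35533 of 37315 genes, and the unmatched genes held 0.181% (vehicle) and 0.188% (entacapone) of the reads. CPM were computed with edgeR 4.0.16 TMM factors (1.014 and 0.986) and RPKM from CPM and union exon length. Medians used a pseudocount of 0.5 CPM. Every measured member is named, and both libraries' values with the interval are given for members with a mean of at least 5 CPM or a call; partner lists give their 2 highest and 2 lowest genes, and other genes named were chosen after their values were seen. Exact intervals and calls were tested on simulated counts that held counting error only, so variation between mice or libraries was not covered. Members and lists were chosen with earlier results of these data known. Clusters join members less than 1 Mb apart. Alternatives were other scalings (DESeq2 1.42.0, total counts, upper quartile), limits, pseudocounts and the symbol pattern, and, added after seeing the data, leaving out members that share 10% or more of their 101-base windows.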

Additional observations from a re-analysis of the deposited data

How the results depend on the processing

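No paired analysis was possible because each group holds 1 library and the labels give no replicate numbers. Under the 3 other scalings, the 27 members beyond counting error kept their direction and stayed beyond it, in 81 of 81 values. The 14 within counting error stayed within it, in 42 of 42 values, and 1 of them, Cyp2j6, changed sign under upper-quartile factors (log2 0.0050). Other limits on level moved the counts. With a mean of at least 5 CPM, 16 members were measured, and 1 was called higher and 1 lower at 2-fold. At any size 7 of them were higher and 3 lower, and the median log2 ratio changed sign to 0.041. With 0.5 CPM required in each library, 4 were called higher and 6 lower. At any size 10 were then higher and 8 lower, and the median was -0.071. For these 2 limits the shares over all genes are given above. With a mean of at least 1 CPM, 4 were called higher and 9 lower, and 10 were higher and 11 lower at any size. Without a limit, 70 members had a read, and 4 were called higher and 21 lower. At 3-fold, 2 were called higher and 10 lower. Shares over all genes were not computed for the 1 CPM limit, for no limit or at 3-fold. Leaving out the members that share 10% or more of their windows, among them Cyp2d10 and Cyp4a10, left 38 measured. Of these, 4 were called higher and 13 lower, 10 were higher and 15 lower at any size, and the median was -0.22. Shares over all genes were not computed for this setting either. The mean over members in place of the median was -0.49. Fewer genes enter under the stricter limits, and the genes that leave are mostly those lower in the entacapone library. Counting intervals are widest for genes with few reads, and variation between mice could not be measured.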
